A study of Mus musculus with 10 samples.

Results

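F-box protein genes encode the substrate receptors of SCF ubiquitin ligases. The members described here were the genes whose platform symbol is Fbxl, Fbxo or Fbxw followed by a number, without Fbxw7, which one of the siRNAs targeted. This gave 65 of the 18194 genes measured by probe sets with a single gene symbol, namely 16 Fbxl, 32 Fbxo and 17 Fbxw genes. Each gene was read from the probe set with the highest mean over the arrays. The rule itself uses no measured difference between groups. Values are log2 of the deposited intensities, and differences are differences of log2 means with the standard error (SE) of a model fitted with limma across all genes and groups.

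The arrays profiled NG4, a line of embryonic stem cells from the mouse. Cells of all groups were transfected with siRNA as they were plated, kept in retinoic acid, which starts differentiation, and harvested 48 h after transfection. The 5 groups, with 2 arrays each, received siSocs3, against an inhibitor that LIF and STAT3 signals induce and that damps them, siSox17, against an endoderm transcription factor, siFbxw7, against the F-box protein that targets MYC and cyclin E, siRnf31, against a ligase that builds linear ubiquitin chains, or siNonTarget, the control siRNA. Whether the 2 arrays of a group stem from separate cultures is not stated, so a p-value reflects only the scatter among these samples, part or all of which may be technical.

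In an SCF ligase the cullin Cul1 carries the RING protein Rbx1 at one end and the adaptor Skp1 at the other. The F-box binds Skp1, and the rest of the F-box protein binds the substrate, often once the substrate has been phosphorylated. Symbols follow the substrate-binding part: leucine-rich repeats in Fbxl, WD40 repeats in Fbxw, and other or no known domains in Fbxo. In embryonic stem cells the best known member is Fbxo15, a target of Oct4 and Sox2 whose promoter was used as a reporter in the first reprogramming experiments.

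Several facts of the arrays bear on the members. No targeted gene was called in the group whose siRNA was aimed at it: the log2 differences from siNonTarget were 0.44 ± 0.24 for Socs3, 0.03 ± 0.53 for Sox17, −0.25 ± 0.15 for Fbxw7 and −0.40 ± 0.17 for Rnf31 (SE, n = 2 arrays a group). The transcripts therefore do not check the labels, and each direction given here is that between arrays so labelled. The 3′ minus 5′ difference of the actin control probe sets, a sign of RNA integrity and amplification, was 0.597 on siFbxw7 array 1 and 0.497 on siNonTarget array 1, against 0.212 to 0.294 on the other arrays. The 10 pluripotency genes of a marker list, all above the dimmest 30% of genes, had summed intensities of 46670 to 49390 on siSocs3 arrays, 37180 to 40430 on siSox17 arrays, 31210 to 36300 on siFbxw7 arrays, 29880 to 38600 on siRnf31 arrays and 28020 to 30790 on siNonTarget arrays. The 9 neural markers summed to 844.1 to 1079 on siSocs3 arrays, 1544 to 1695 on siSox17 arrays, 1471 to 2103 on siFbxw7 arrays and 1549 to 1802 on siRnf31 arrays, against 1906 to 2531 on siNonTarget arrays. In siSocs3 against siNonTarget, 6 of the pluripotency genes passed as higher and 5 of the neural genes as lower. At an unadjusted p of 0.05, 8 pluripotency genes were higher and 1 was lower. Of 10 extraembryonic endoderm markers none passed (1 at an unadjusted p of 0.05), with sums of 4070 to 4634 on siSocs3 arrays and 4720 to 5346 on siNonTarget arrays. Of 11 fibroblast feeder markers 2 passed as lower, with sums of 1471 to 1635 on siSocs3 arrays and 1829 to 2259 on siNonTarget arrays. Of these markers, 2 neural, 1 endoderm and 3 fibroblast markers lay in the dimmest 30%. In these bulk samples fewer cells of a type and less RNA per cell cannot be told apart.

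With siSocs3, the embryonic stem cell gene Fbxo15 rose 2.95-fold over siNonTarget, and Fbxo33 and Fbxo34 rose by less. Fbxo32, Fbxl16, Fbxl2, Fbxl17 and Fbxo45 fell, and Fbxo32 was 4.92-fold lower. These 8 of 65 members (12.3%) passed an adjusted p (Benjamini-Hochberg, over all genes of the comparison) of 0.05. Of all genes, 9.26% passed, 3.59% as higher and 5.66% as lower, so the members' share was near the background. At an unadjusted p of 0.05, 17 members passed, which is 26.2% of them, and 26.2% of all genes did. The members' median difference was −0.05, beside 0.03 over all genes. With median centring of the arrays, whose medians lay up to 0.13 apart, the 3 higher and 5 lower calls became 4 and 4, and with quantile normalization 3 and 3.

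**Figure D1:**
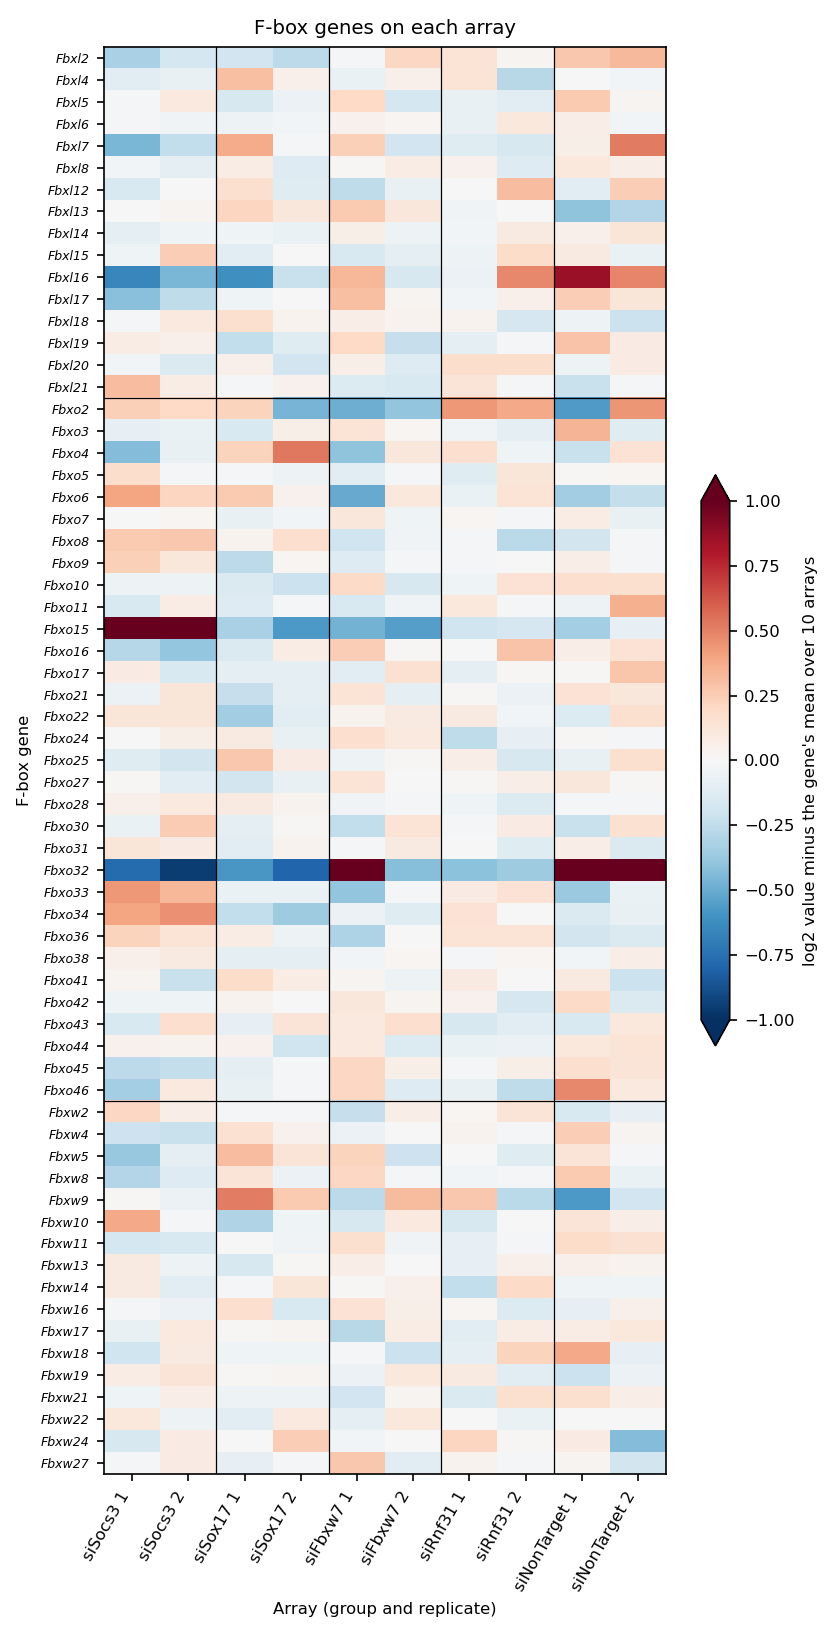
Heat map of the 65 F-box genes by array, with colour giving each gene's log2 intensity minus its mean over the 10 arrays, cut off at 1 either way, and columns running from siSocs3 to siNonTarget. Fbxo15 stands out as high on both siSocs3 arrays, at 12.97 and 12.56 log2, and Fbxo32 as low on every array other than the siNonTarget arrays and siFbxw7 array 1.

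Promoters are shown for 5 of the 8 called members, since these genes moved in the same comparison. Each runs from 250 bases before to 50 bases after the annotated start on the gene's own strand (RefSeq, GRCm38.p6). Capitals mark matches, on either strand, to AGGTCA (the retinoic acid receptor half-site), TTCNNNGAA (the STAT palindrome), CACGTG (the E-box bound by MYC) or GGGCGG (the GC box).
Fbxo33: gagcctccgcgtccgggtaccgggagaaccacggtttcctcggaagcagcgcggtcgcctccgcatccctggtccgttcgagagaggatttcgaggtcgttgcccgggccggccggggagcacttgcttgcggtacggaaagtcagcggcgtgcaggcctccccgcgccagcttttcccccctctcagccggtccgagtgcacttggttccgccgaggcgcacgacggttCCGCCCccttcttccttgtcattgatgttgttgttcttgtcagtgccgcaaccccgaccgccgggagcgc
Fbxo34: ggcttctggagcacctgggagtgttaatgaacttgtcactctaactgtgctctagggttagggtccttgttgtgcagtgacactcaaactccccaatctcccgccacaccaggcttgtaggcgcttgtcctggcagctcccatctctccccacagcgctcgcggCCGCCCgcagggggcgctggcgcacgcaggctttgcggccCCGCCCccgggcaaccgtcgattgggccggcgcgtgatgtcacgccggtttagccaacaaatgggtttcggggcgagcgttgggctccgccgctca
Fbxl16: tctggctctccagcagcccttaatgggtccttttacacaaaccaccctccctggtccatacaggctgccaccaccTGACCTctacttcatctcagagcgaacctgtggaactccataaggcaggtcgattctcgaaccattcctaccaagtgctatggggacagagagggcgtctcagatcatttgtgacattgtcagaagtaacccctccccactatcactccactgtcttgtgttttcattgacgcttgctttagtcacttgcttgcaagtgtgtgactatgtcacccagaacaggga
Fbxl2: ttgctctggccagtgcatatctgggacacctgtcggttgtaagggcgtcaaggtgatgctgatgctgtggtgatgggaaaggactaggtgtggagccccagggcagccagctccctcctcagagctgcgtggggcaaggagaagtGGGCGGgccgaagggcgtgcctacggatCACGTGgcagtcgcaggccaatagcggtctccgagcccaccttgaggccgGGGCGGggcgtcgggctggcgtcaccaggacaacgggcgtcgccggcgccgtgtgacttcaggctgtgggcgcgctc
Fbxl17: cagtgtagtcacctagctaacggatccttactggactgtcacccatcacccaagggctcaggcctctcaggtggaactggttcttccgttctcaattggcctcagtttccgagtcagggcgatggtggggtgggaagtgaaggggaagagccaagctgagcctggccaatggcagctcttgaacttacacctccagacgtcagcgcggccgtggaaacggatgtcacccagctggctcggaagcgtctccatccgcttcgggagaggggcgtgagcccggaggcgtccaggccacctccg
The 2 that rose lie at chr12:59219434-59219733 on the minus strand (Fbxo33) and chr14:47472311-47472610 on the plus strand (Fbxo34), and the 3 that fell at chr17:25808211-25808510 on the plus strand (Fbxl16), chr9:114026702-114027001 on the minus strand (Fbxl2) and chr17:63500531-63500830 on the minus strand (Fbxl17). The window of Fbxl16 had a GC content of 50.7% with 5 CpG dinucleotides, and that of Fbxo33 67.0% with 36. The retinoic acid half-site letters occurred once, in Fbxl16, and the STAT letters in none of the 5. GC box letters were found in both promoters of the genes that rose and in Fbxl2. Over the whole table of 32851 promoters, AGGTCA occurred in 16.3%, TTCNNNGAA in 8.3%, CACGTG in 7.15% and GGGCGG in 35.7%. For the 48 members matched in it, with 65 promoters, these shares were 9.23%, 15.4%, 6.15% and 58.5%, and their median GC content was 59.3%, beside 52.7% over all promoters. A match is a run of letters and was not tested as a binding site.

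Fbxo15 gave the widest rise among the members. Its log2 intensity was 12.97 and 12.56 on siSocs3 arrays, 11.09 and 10.84 on siSox17 arrays, 10.94 and 10.86 on siFbxw7 arrays, 11.21 and 11.24 on siRnf31 arrays, and 11.07 and 11.33 on siNonTarget arrays. Both siSocs3 arrays lay above all the others, which ran from 10.84 to 11.33. The siSocs3 minus siNonTarget difference was 1.56 ± 0.16 (95% interval 1.21 to 1.92, adjusted p = 0.00271). Against the other targeted siRNAs it was 1.80 ± 0.16 over siSox17 (adjusted p = 0.00155), 1.86 ± 0.16 over siFbxw7 (adjusted p = 0.00129) and 1.54 ± 0.16 over siRnf31 (adjusted p = 0.00444). In the 3 other groups Fbxo15 differed from siNonTarget by −0.24, −0.30 and 0.02, none of which passed. The pluripotency markers had a median difference from siNonTarget of 1.30 with siSocs3, 0.72 with siSox17, 0.40 with siFbxw7 and 0.43 with siRnf31. With siSox17, where Fbxo15 was at −0.24, 8 of the 10 were higher and 2 lower at an unadjusted p of 0.05, and none passed the adjusted test. The part of the cells' wider state in the Fbxo15 difference was not tested. Its partners in the list of pluripotent cell and chromatin genes did not pass: Fbxl19 was at −0.12, Fbxo11 at −0.19 and Fbxo38, a coactivator of Klf7, at 0.06.

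Fbxo34 gave 9.77 and 9.83 on siSocs3 arrays, 9.13 and 9.02 on siSox17 arrays, 9.32 and 9.25 on siFbxw7 arrays, 9.52 and 9.38 on siRnf31 arrays, and 9.23 and 9.30 on siNonTarget arrays. The siSocs3 arrays were again the highest of all, and replicates differed by 0.07 to 0.14. The difference from siNonTarget was 0.53 ± 0.10 (adjusted p = 0.0162). It also passed against siSox17, at 0.73 ± 0.10 (adjusted p = 0.0071), and against siFbxw7, at 0.51 ± 0.10 (adjusted p = 0.0283), while 0.35 ± 0.10 against siRnf31 did not (adjusted p = 0.118). Fbxo34 and Fbxo15 were the only members called in any comparison between targeted siRNAs.

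Fbxo33, a receptor for the stress-responsive protein YB-1, was measured at 10.16 and 10.06 on siSocs3 arrays, against 9.36 and 9.66 on siNonTarget arrays. The groups did not overlap, and the difference was 0.60 ± 0.15 (adjusted p = 0.0366). On the other arrays it ran between 9.33 and 9.87, below both siSocs3 arrays. A second Fbxo33 probe set gave a difference of the same sign, 0.47 ± 0.12. By the probe sets used, the other p53 and stress genes, Fbxo22, Fbxo42, Fbxo9 and Fbxo3, lay between −0.18 and 0.15 in siSocs3 against siNonTarget. None was called. Their unused probe sets ran from −0.40 to 0.09 for Fbxo3 and gave 0.02 and 0.35 for Fbxo42. Those of Fbxo22 gave −0.11 and 0.18, and that of Fbxo9 gave 0.26, with none called.

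Fbxo32, also called atrogin-1 or MAFbx and known for driving muscle wasting, had the widest range of any member, 2.76 over the arrays. It read 5.51 and 5.33 on siSocs3 arrays, 5.70 and 5.49 on siSox17 arrays, 7.69 and 5.86 on siFbxw7 arrays, 5.87 and 5.93 on siRnf31 arrays, and 8.09 and 7.35 on siNonTarget arrays. Every siSocs3, siSox17 and siRnf31 array lay below both siNonTarget arrays, while the siFbxw7 replicates stood 1.84 apart, with array 1 between the siNonTarget values. Each siRNA group is compared with the same siNonTarget arrays, so a high control value enters every difference of Fbxo32. The siFbxw7 and siNonTarget arrays with the highest Fbxo32 are also those with the high actin difference. The part of RNA integrity in the level of Fbxo32 was not tested.

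The siSocs3 difference of Fbxo32 from siNonTarget was −2.30 ± 0.48 (95% interval −3.38 to −1.21, adjusted p = 0.0227). Those of siSox17 and siRnf31 were −2.12 ± 0.48 (adjusted p = 0.138) and −1.82 ± 0.48 (adjusted p = 0.778), and that of siFbxw7 was −0.94 ± 0.48 (adjusted p = 0.772). In the direct tests siSocs3 was at −0.17 from siSox17 (adjusted p = 0.902) and −0.48 from siRnf31 (adjusted p = 0.682), values that missed the threshold, which does not show that the levels were equal. The 2 other probe sets of Fbxo32 gave −1.48 ± 0.45 and −1.85 ± 0.62 in siSocs3 against siNonTarget, the same direction, but were not called (adjusted p = 0.0827 and 0.112 over all named probe sets). With the mean of its probe sets, Fbxo32 was at −1.87 and lost the call (adjusted p = 0.0558). The only other muscle-related member measured, Fbxo30, an F-box protein linked to muscle loss, was at 0.13. Without both arrays of high actin difference, Fbxo32 passed in siSox17 against siNonTarget, at −1.75 (adjusted p = 0.0404). Leaving out either siFbxw7 array also gave a call, with the siSox17 difference unchanged at −2.12. Those arrays enter this comparison only through the estimate of scatter, which then loses the siFbxw7 replicate gap of 1.84. That call is therefore no further support for a siSox17 difference.

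**Figure D2:**
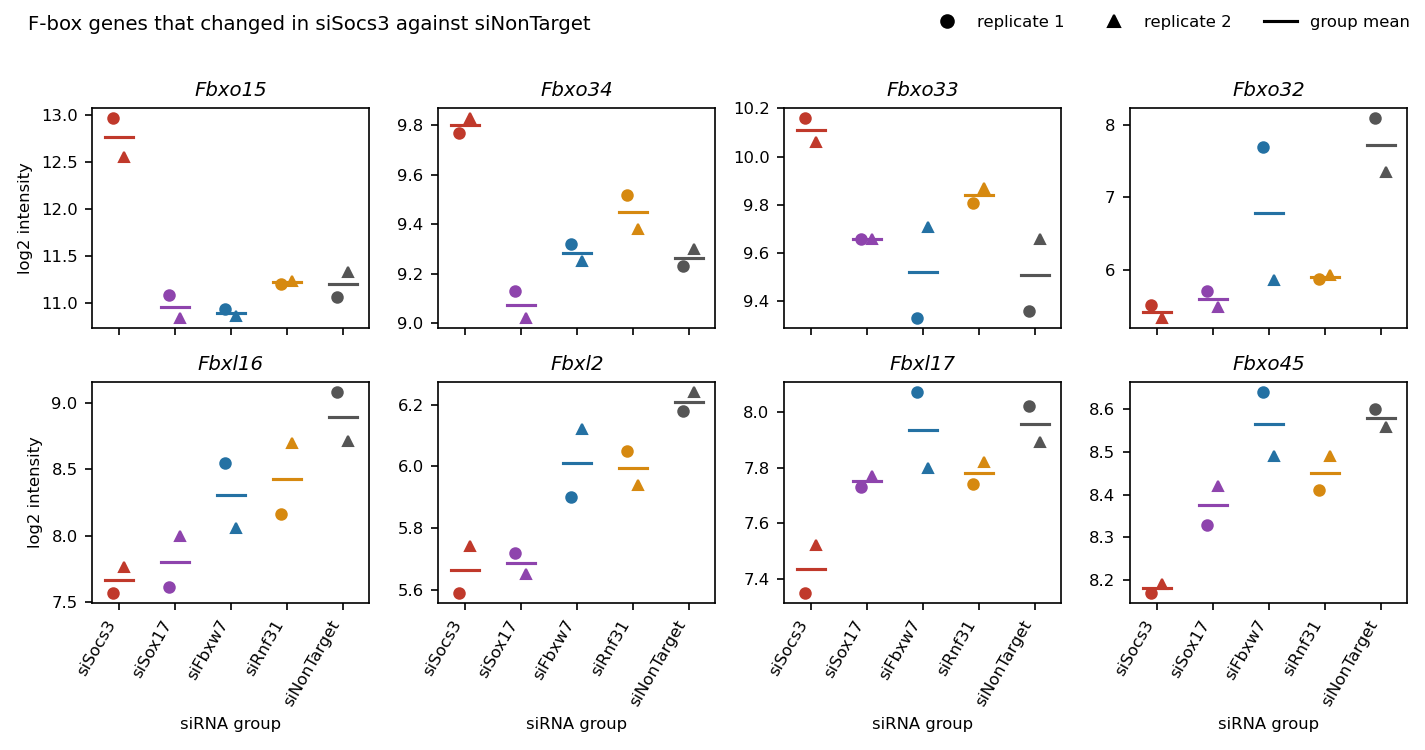
Log2 intensity on each array of the 8 F-box genes called in siSocs3 against siNonTarget, with a circle for replicate 1 and a triangle for replicate 2, a line at each group mean, and groups from siSocs3 on the left to siNonTarget on the right. Fbxo15 and Fbxo34 are highest on the siSocs3 arrays, and Fbxo32 reads 8.09 and 7.35 on siNonTarget arrays and 7.69 on siFbxw7 array 1.

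Of 6 measured genes with described roles in neurons and synapses, 3 fell with siSocs3, namely Fbxl16, Fbxl2 and Fbxo45, where 5.66% of all genes were called lower. The other 3 did not pass. All 6 estimates were below 0, with a median of −0.31 beside 0.03 over all genes. The list was chosen with earlier results of these data known, so these counts describe it and are not independent support. Fbxl16, a leucine-rich repeat member abundant in brain, measured 7.57 and 7.76 on siSocs3 arrays, 7.61 and 8.00 on siSox17 arrays, 8.55 and 8.06 on siFbxw7 arrays, 8.16 and 8.70 on siRnf31 arrays, and 9.08 and 8.71 on siNonTarget arrays. All other arrays were at or below the lower siNonTarget array, and the siSocs3 arrays and siSox17 array 1 were lowest. Because the siNonTarget arrays are shared, a high control value enters every difference of Fbxl16. The difference was −1.23 ± 0.23 with siSocs3 (adjusted p = 0.0171). It was −1.09 ± 0.23 with siSox17 (adjusted p = 0.138), −0.59 ± 0.23 with siFbxw7 (adjusted p = 0.752) and −0.47 ± 0.23 with siRnf31 (adjusted p = 0.778), which did not pass.

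Fbxl2, which is anchored in membranes by a lipid group, showed a similar order of groups. It read 5.59 and 5.74 on siSocs3 arrays and 5.72 and 5.65 on siSox17 arrays, against 6.18 and 6.24 on siNonTarget arrays. The siFbxw7 and siRnf31 arrays, from 5.90 to 6.12, lay between. The siNonTarget arrays are shared here too. The siSocs3 difference was −0.54 ± 0.11 (adjusted p = 0.0223), and the siSox17 difference, −0.52 ± 0.11, did not pass (adjusted p = 0.138). In siSocs3 against siNonTarget, 5 of 9 neural markers also fell, and the part of this in the F-box genes of neurons was not tested.

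Fbxo45 is part of a ligase with Mycbp2 that works in axon and synapse formation. It was at 8.17 and 8.19 on siSocs3 arrays and 8.60 and 8.56 on siNonTarget arrays, a difference of −0.40 ± 0.10 (adjusted p = 0.0379). Its second probe set did not move in that direction and gave 0.07 ± 0.11, and with the mean of both probe sets the difference was −0.17 (adjusted p = 0.273). The uncalled members of the list were Fbxl20, a regulator of the synaptic protein Rim1, at −0.10, Fbxo41, a neuronal protein of the cerebellum and cortex, at −0.04, and Fbxo10 at −0.22.

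Fbxl17, which dissolves mispaired BTB-domain dimers, was measured at 7.35 and 7.52 on siSocs3 arrays, against 8.02 and 7.89 on siNonTarget arrays. The groups did not overlap, and the remaining arrays, from 7.73 to 8.07, were all above siSocs3. The difference was −0.52 ± 0.12 (adjusted p = 0.0311). Its second probe set gave −0.08 ± 0.11, and the mean of both −0.30 (adjusted p = 0.0791). In the signalling and morphogenesis list of 11 measured genes, Fbxl17 and Fbxo45 passed as lower and none as higher. This is 18.2% of the list, beside 5.66% of all genes called lower. Fbxo45 is also on the neuron and synapse list, so its call enters both counts. Near the threshold were Fbxw11, one of the β-TrCP proteins that turn over β-catenin, at −0.33 (adjusted p = 0.0742), and Fbxw4 at −0.35 (adjusted p = 0.0717), neither called. Fbxo8, a protein with a Sec7 domain, went the other way, with 9.89 and 9.90 on siSocs3 arrays and 9.45 and 9.61 on siNonTarget arrays, a difference of 0.37 that was not called (adjusted p = 0.0943).

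Most of these calls were lost on leaving out any of several arrays, which also leaves 1 array in a group and fewer values to estimate scatter. A lost call therefore does not show that 1 array carried it. The share of all genes called in each refit is not given here, so the counts below cannot be read as particular to the members. Over all settings run, the difference was 0.50 to 0.62 for Fbxo34, −0.62 to −0.45 for Fbxl2, −1.42 to −1.04 for Fbxl16 and −0.42 to −0.17 for Fbxo45. Without siSocs3 replicate 1, siSocs3 replicate 2 or siNonTarget replicate 1, 1 member, Fbxo15, was called in siSocs3 against siNonTarget, and without siNonTarget replicate 2 there were 5. Leaving out either siSox17 array also gave 5. Without both arrays of high actin difference 3 members were called, namely Fbxo15, Fbxo32 and Fbxl7. The Fbxo15 difference stayed past the threshold in each of these refits, at 1.36 to 1.77 with single arrays left out and 1.43 without both high-actin arrays.

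**Figure D3:**
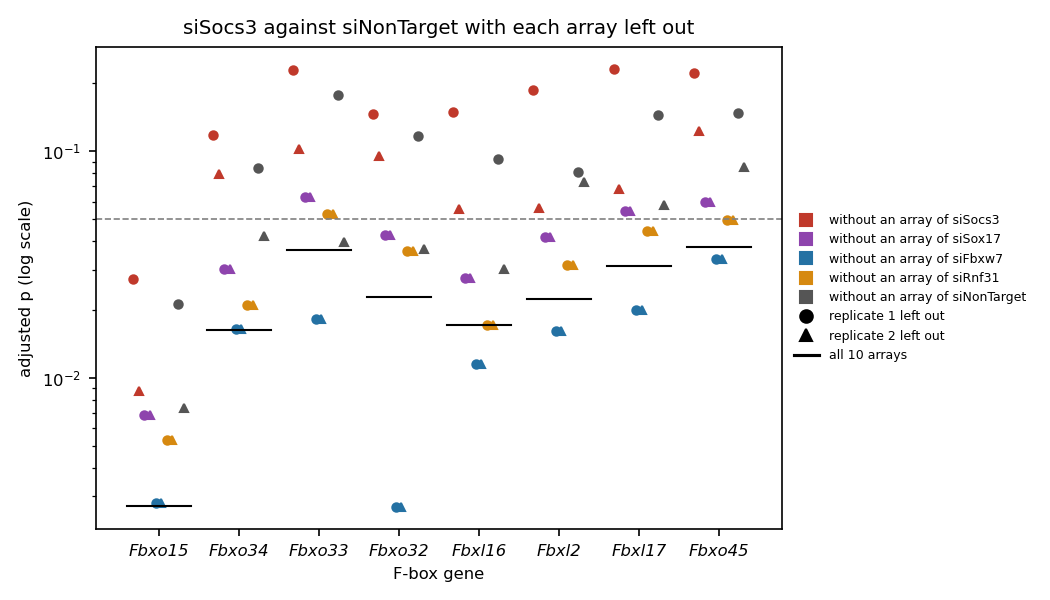
Adjusted p (log axis) of the 8 called F-box genes in siSocs3 against siNonTarget, with a line for all 10 arrays, a point for each array left out, coloured by its group, and a dashed line at 0.05. Fbxo15 stays below the dashed line throughout, while the other 7 genes lie above it without either siSocs3 array or without siNonTarget array 1.

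Members with roles in the cell cycle and genome upkeep gave no call in siSocs3 against siNonTarget among 8 measured. The largest difference was that of Fbxl7, described as acting on Aurora A and survivin, which read 6.12 and 6.33 on siSocs3 arrays, against 6.64 and 7.10 on siNonTarget arrays. The groups did not overlap, but the difference of −0.65 ± 0.20 missed the threshold (adjusted p = 0.0781). Other probe sets of Fbxl7 gave −0.93 ± 0.46, −0.05 ± 0.10 and 0.23 ± 0.13, so its probe sets differ in sign. Fbxo5, or Emi1, which inhibits the anaphase-promoting complex, was even, with a range of 0.31 over the arrays and a difference of 0.07. Fbxo43, or Emi2, which holds the egg in meiotic arrest, lay in the dimmest 30% of genes, at 3.29 to 3.62.

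Of the 5 lectin-type members that bind N-glycans of glycoproteins, none was called. Fbxo6 had the largest difference, with 9.70 and 9.52 on siSocs3 arrays and 8.96 and 9.07 on siNonTarget arrays. At 0.60 ± 0.19 it missed the threshold (adjusted p = 0.0806), but it passed limma with the arrays of the 2 groups alone (adjusted p = 0.0449). It also passed without either siFbxw7 array. Both settings leave the difference unchanged and take the siFbxw7 replicate gap of 0.61 out of the scatter, so they add no further support. Its chromosomal neighbour Fbxo2 was the member whose siNonTarget replicates were farthest apart, at 7.66 and 8.67, a gap of 1.01. Values of Fbxo2 on the other arrays, 7.74 to 8.66, all fell within that gap. Fbxo44, which also neighbours both on chromosome 4, was at −0.08 in siSocs3 against siNonTarget, and Fbxo27 and Fbxo17, neighbours on chromosome 7, at −0.11 and −0.18.

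None of the 3 measured genes of iron and mitochondrial upkeep was called. Fbxl5, which senses iron and turns over the iron regulatory protein Ireb2, was at −0.10 with siSocs3 and −0.26 with siSox17, its largest difference, neither called. Fbxo7, which works in mitochondrial quality control, had one of the 3 narrowest ranges of any member, 0.19 over the arrays, beside 0.18 for Fbxl6 and 0.19 for Fbxo38. Fbxl4, a protein of the mitochondrial outer membrane, was at −0.07 with siSocs3. Fbxl21, which acts on the clock proteins Cry1 and Cry2, was dim, at 3.28 to 3.81, and its siSocs3 difference of 0.30 ± 0.12 was not called (adjusted p = 0.152).

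By subfamily, 3 of 16 Fbxl genes were called in siSocs3 against siNonTarget, all lower (18.8%), and 5 of 32 Fbxo genes, 3 higher and 2 lower (15.6%), beside 9.26% of all genes. None of the 17 Fbxw genes was called by limma, and 2 passed an unadjusted p of 0.05, both lower, a threshold that 26.2% of all genes passed. Whether the subfamilies differ was not tested. Many Fbxw genes are dim: 9 of the 12 members in the dimmest 30% of genes are Fbxw. Near background RMA values compress changes, so a change there is hard to detect. The Fbxw genes outside the dimmest 30% were not called either, and the part of dimness in the lack of calls was not tested. In RefSeq's gene table (GRCm38.p6), 15 Fbxw genes neighbour each other on chromosome 9, and 9 of them are members here. The 10 members from Fbxw13 to Fbxw27 had differences of −0.20 to 0.23 with siSocs3 and none passed at either threshold. Among them Fbxw17, at 7.82 to 8.20, and Fbxw22, at 7.39 to 7.61, lay outside the dimmest 30%, and the other 8 lay in it. Fbxw24 had the largest difference of the germ cell and reproductive tissue genes, 0.29 with siSox17, on values from 3.42 to 4.10, and was not called (adjusted p = 0.435). Without siNonTarget array 2, which held the 3.42, the difference was 0.03. That list of 11 had no call in any comparison with siNonTarget. Among all genes, 9.26% were called with siSocs3 and at most 0.0055% with each other siRNA.

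In siSox17 against siNonTarget no member passed with limma, and 1 of all genes did (0.0055%). At an unadjusted p of 0.05, 9 members did (13.8%), 3 higher and 6 lower, against 17.3% of all genes. The smallest p-values belonged to Fbxl13, Fbxl16 and Fbxl2. Fbxl13 was dim, and it was at 5.05 and 4.95 on siSox17 arrays, 4.83 and 4.86 on siSocs3 arrays, 5.10 and 4.95 on siFbxw7 arrays and 4.80 and 4.84 on siRnf31 arrays, against 4.43 and 4.54 on siNonTarget arrays. Every targeted array lay above both siNonTarget arrays. The differences were 0.51 ± 0.10 (adjusted p = 0.131) with siSox17, 0.36 ± 0.10 (adjusted p = 0.0587) with siSocs3, 0.54 ± 0.10 (adjusted p = 0.752) with siFbxw7 and 0.34 ± 0.10 (adjusted p = 0.778) with siRnf31. These comparisons share the siNonTarget arrays, so a low control value enters them all. Fbxw9 read 10.29 and 10.04 on siSox17 arrays, against 9.21 and 9.59 on siNonTarget arrays, and its 0.77 ± 0.23 did not pass (adjusted p = 0.166).

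In siFbxw7 against siNonTarget no member was called by limma, and 0% of all genes were. At an unadjusted p of 0.05, 2 members passed (3.08%), Fbxl13 as higher and Fbxl16 as lower, against 6.45% of all genes. Replicates over 0.5 apart occurred for 4 members with siFbxw7 (6.15%, beside 7.96% of all genes), none with siSocs3 (beside 2.35%) and 3 with siNonTarget (4.62%, beside 7.41%). The endoderm markers summed to 6117 to 9043 on siFbxw7 arrays, above all siNonTarget arrays, with none of 10 called by limma and 4 higher at an unadjusted p of 0.05, and their part in the members' values was not tested. In siRnf31 against siNonTarget there was likewise no call, with 0% of all genes, and 4 members passed an unadjusted p of 0.05 (6.15%), against 5.87%. Those with the smallest p were Fbxo32, Fbxl13 and Fbxo36. Fbxo36 read 7.54 and 7.54 on siRnf31 arrays and 7.22 and 7.26 on siNonTarget arrays, a difference of 0.31 ± 0.12 that was not called (adjusted p = 0.778). Fbxo36 also measured 7.63 and 7.54 on siSocs3 arrays, at 0.35 from siNonTarget (adjusted p = 0.0956). The members' median was −0.06 with siSox17, −0.03 with siFbxw7 and −0.05 with siRnf31.

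**Figure D4:**
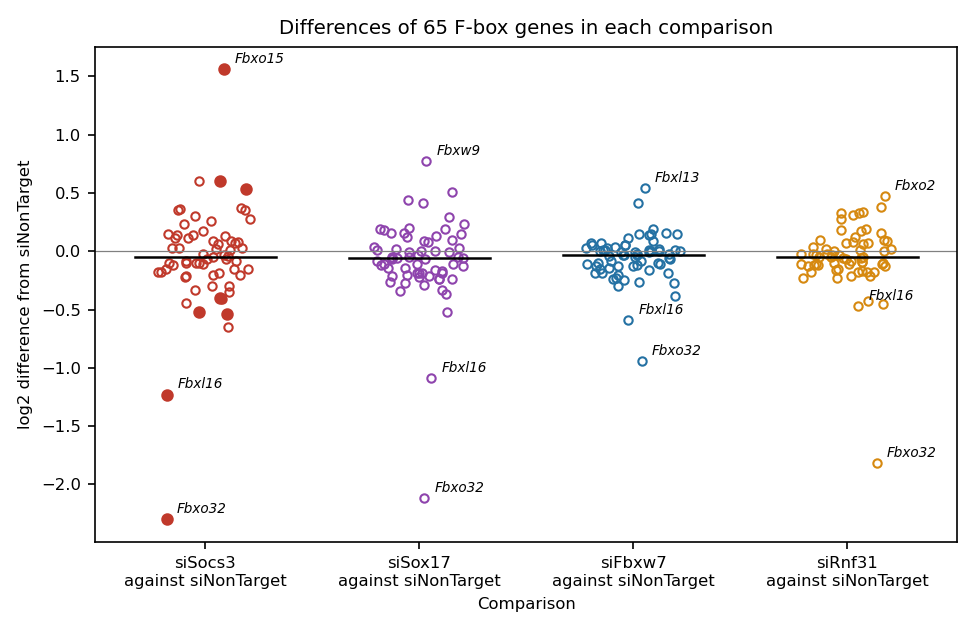
Log2 difference from siNonTarget of the 65 F-box genes with each targeted siRNA, with a circle per gene, filled where the adjusted p was under 0.05, and a line at the median. Filled circles occur with siSocs3 alone, where Fbxo15 is at 1.56, and Fbxo32 is the lowest gene with all 4 siRNAs, between −2.30 and −0.94. All 4 are compared with the same siNonTarget arrays.

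Between targeted siRNAs, calls were made only in comparisons with siSocs3. Against siSox17 2 members passed, Fbxo15 and Fbxo34, both higher with siSocs3 (3.08%), while 2.61% of all genes passed. At an unadjusted p of 0.05 there were 12 members (18.5%), against 17.4% of all genes. Against siFbxw7 the same 2 genes passed, against 3.51% of all genes, with 13 members at the unadjusted threshold (20.0%), against 18.5%. Against siRnf31 Fbxo15 alone passed (1.54%), against 2.13% of all genes, and 8 members passed unadjusted (12.3%), against 16.9%.

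The 3 comparisons without siSocs3 gave no call by limma, for the members or for all genes (0% in each). At an unadjusted p of 0.05, 3 members passed in siFbxw7 against siSox17 (5.59% of all genes), 3 in siFbxw7 against siRnf31 (5.19%) and 3 in siSox17 against siRnf31 (7.68%). Across the arrays the members varied about as much as other genes. The median range was 0.47 for the members, beside 0.49 over all genes, and 5 members (7.69%) had a range over 1, beside 11.0% of all genes. Those 5 were Fbxo32, Fbxo15, Fbxl16, Fbxw9 and Fbxo2.

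Of 19 genes of the cullin-1 core and neddylation list, none passed in siSocs3 against siNonTarget by limma, and 6 passed an unadjusted p of 0.05, 1 higher and 5 lower, a threshold that 26.2% of all genes passed. Skp1, the adaptor that every F-box protein binds, was at 12.97 and 12.95 on siSocs3 arrays and 12.85 and 13.02 on siNonTarget arrays, a difference of 0.03 ± 0.10. Cul1, the scaffold, was at −0.05 ± 0.09 and Rbx1, the RING subunit, at 0.24 ± 0.23. Cand1, which exchanges F-box modules on the cullin, passed in siSocs3 against siSox17, at 0.49 ± 0.10 (adjusted p = 0.0391). Of 11 COP9 signalosome genes, which remove Nedd8 from cullins, none was called in siSocs3 against siNonTarget and 4 passed unadjusted. Of 8 F-box genes with other symbols, such as Skp2, Ccnf and Btrc, none was called in that comparison and 3 passed unadjusted. None of these lists, nor the substrates, had a call in the other comparisons with siNonTarget. There 0.0055% of all genes were called with siSox17 and 0% with siFbxw7 and siRnf31, so this is no result about the lists.

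Of 29 genes whose proteins are described substrates of members, 4 passed in siSocs3 against siNonTarget, 2 higher and 2 lower. This is 13.8%, near the 9.26% of all genes. Klf4, a factor that is also on the pluripotency marker list and a described substrate of Fbxo32, rose by 1.64 ± 0.35, with 11.12 and 10.68 on siSocs3 arrays and 9.37 and 9.16 on siNonTarget arrays (adjusted p = 0.0241). Ccnd2, cyclin D2 and a described substrate of Fbxl2, fell by 2.13 ± 0.38, with 9.04 and 9.09 on siSocs3 arrays and 11.79 and 10.60 on siNonTarget arrays (adjusted p = 0.0137). Snai1, a repressor of epithelial genes that Fbxl14 turns over, rose by 0.83 ± 0.22 (adjusted p = 0.047), and Sass6, a centriole protein and described substrate of Fbxw5, fell by 0.41 ± 0.10 (adjusted p = 0.0419). These are transcript levels, and neither the proteins nor their turnover were measured. Between targeted siRNAs, Bcl6, a transcriptional repressor and described substrate of Fbxo11, was 1.04 ± 0.15 higher with siSocs3 than with siFbxw7 (adjusted p = 0.00817), and Ccnd2 was at −1.76 ± 0.38 (adjusted p = 0.0404). In siSocs3 against siNonTarget, Fbxl14 and Fbxw5 themselves were at −0.15 and −0.30, neither called.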

How the data were processed

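The deposited values are RMA intensities, 1 per probe set and array, made by the authors per the submitters' processing notes. RMA corrects background, normalizes between arrays and summarises probes, and whether anything was rescaled afterwards is not given in the sources used here. Deposited intensities ran from 5.05 to 31606.3 with array medians of 46.39 to 47.95, a linear scale without centring, so log2 was taken. Each array was made from 5 ng of total RNA, amplified to cDNA, per the labels' protocols. The number of arrays limits the precision.

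Of 45101 probe sets, 34958 had 1 gene symbol in the platform annotation, 932 had several and 9211 were not listed and are unnamed here. Gene IDs of 34754 matched the RefSeq gene table, which changed 0 symbols. The members had 112 probe sets: 40 members had 1 and 25 several. Fbxw23, Fbxw25 and Fbxw28 have only probe sets with several symbols and were not analysed here. No filter on dim genes was applied, so all 65 members were tested, 12 of them in the dimmest 30% (mean log2 up to 5.12).

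A single linear model holding all 5 groups was run in limma 3.58.1, R 4.3.3 (lmFit, eBayes), since 2 arrays a group leave few degrees of freedom, with two-sided tests and Benjamini-Hochberg adjustment over 18194 genes within each of 10 comparisons. The script was tested on simulated data. Errors are standard errors of this model. The members and lists were chosen with earlier results of these data known. Members named were those called anywhere, the 3 with the smallest p where a comparison with siNonTarget had no call, the largest difference of each role list, the 3 widest and 3 narrowest ranges, and those whose probe sets disagreed. Members given values beyond this rule, such as Fbxw9, Fbxo2, Fbxw11, Fbxw4, Fbxo8 and Fbxo5, were chosen after their values were seen. Same-numbered replicates mostly did not deviate together: of 10 pairs of groups, 1 had a correlation over 0.1 (range −0.26 to 0.421).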

Additional observations from a re-analysis of the deposited data

Results flagged for a closer look

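A gene's values came from 1 probe set, and 3 probe sets that were not used passed an adjusted p of 0.05 (limma, Benjamini-Hochberg over all named probe sets) in siSocs3 against siNonTarget. One is the second probe set of Fbxo33, at 0.47 ± 0.12 (SE, n = 2 arrays a group, adjusted p = 0.0492), the same direction as the probe set used. One of the unused probe sets of Fbxo28 read 8.75 and 8.65 on siSocs3 arrays and 8.25 and 8.26 on siNonTarget arrays, a difference of 0.45 ± 0.10 (adjusted p = 0.032). The probe set used for Fbxo28 gave 0.09 ± 0.09, and the other unused one gave −0.39 ± 0.14 (adjusted p = 0.122), so the 3 probe sets of Fbxo28 differ in sign. A dim unused probe set of Fbxw8 read 5.21 and 5.19 on siSocs3 arrays and 4.73 and 4.64 on siNonTarget arrays, a difference of 0.51 ± 0.11 (adjusted p = 0.0296). The probe set used for Fbxw8 was at −0.30 ± 0.14, the opposite direction. Which transcripts these probe sets read was not tested.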

How the results depend on the processing

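Each count of called members was recomputed under 18 alternatives, and each named difference under those that give it. Of 180 such counts, 157 stayed within 1.5 times, but a comparison without a call could move only by gaining one. Of 499 values for 28 named differences 0 changed sign, 59 lost the call and 8 gained it. Only a called difference could lose its call, so 59 of 499 understates the share of calls lost. The named differences were chosen in these same data for a call, a small p or a large size. That none changed sign is therefore no independent support for their directions. In siSocs3 against siNonTarget, where 8 members were called, averaging all probe sets of a gene gave 5 and leaving out both arrays of high actin difference, chosen after seeing the data, gave 3. Leaving out 1 array gave 1 to 9. In siSox17 against siNonTarget, with 0, the 2 groups alone gave 1, leaving out both high-actin arrays 1, and leaving out 1 array 0 to 1. In siSocs3 against siFbxw7, with 2, the same 2 settings gave 1 and 1, and leaving out 1 array 1 to 5, with 5 without siFbxw7 replicate 2. In siSocs3 against siSox17, leaving out 1 array gave 1 to 2. With the replicate number as a block, 7 members were called in siSocs3 against siNonTarget, and Fbxo45 lost its call (adjusted p = 0.0514 by limma). The labels do not say whether the numbers pair the samples. The siFbxw7 difference of Fbxo32 ran from −1.86 to −0.03 with 1 array left out. The cause of these shifts was not tested. Shares of all genes called under these settings are not given here, so the shifts cannot be read as particular to the members. Where 1 array of a group remained, it was assumed to vary like the other groups. With 2 arrays a group, no exact permutation test can reach 0.05. The 12 members in the dimmest 30% lie near background, where a small change may go undetected.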
